A study of Mus musculus with 18 samples.

Results

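The CXC chemokines are small secreted proteins that guide leukocytes, and 10 of them were followed here in lung macrophages: Cxcl1, Cxcl2, Cxcl3, Cxcl9, Cxcl10, Cxcl11, Cxcl12, Cxcl13, Cxcl14 and Cxcl16. They were chosen by gene symbol from a count table of 21254 genes, and all 10 passed the filter on low counts that left 15811 genes for testing. The counts came from bulk RNA sequencing of 18 libraries, 3 for each of 6 groups of population and genotype. moMs (CD45+CD11b+MHC-II-Ly6C+ monocyte-derived macrophages), tnsIMs (transitional interstitial macrophages, MHC-II+Ly6C+, which the labels call trIM) and matIMs (mature interstitial macrophages, MHC-II+Ly6C-) were sorted from mouse lungs 24 h after nebulization of Pseudomonas aeruginosa LPS (12.5 mg, dissolved in 5 ml and inhaled for 15 min). Ezr-KOm mice carry floxed alleles of Ezr, the gene of the membrane to actin linker ezrin, together with Cre recombinase under Cx3cr1 (Ez fl/fl with Cx3cr1 Cre). WT mice carry the same Cre without floxed Ezr (B6.Cx3cr1tm1.1(cre)Jung/J). All were adult C57BL/6 mice of both sexes, and every group had received LPS, so no library shows the level before it. In a separate reporter line the study also saw low Cx3cr1-driven GFP in classical dendritic cells, eosinophils and NK cells. The study's figure captions give 3 mice per genotype and its methods 3 samples per genotype. The populations of a genotype were therefore taken to come from shared animals, and the labels do not say whether a replicate number marks an animal.

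CXC chemokines are grouped by the receptor they bind. Cxcl1, Cxcl2 and Cxcl3 carry an ELR motif before their first cysteines and draw neutrophils through Cxcr2. They are classic early targets of NF-kB after LPS. Cxcl9, Cxcl10 and Cxcl11 are induced by interferons, and their proteins draw activated T and NK cells through Cxcr3. Cxcl11 is annotated here as a polymorphic pseudogene, and whether these mice make a working Cxcl11 protein was not tested. Cxcl12, which stromal cells make, holds Cxcr4+ cells in their niches, and Cxcl13 draws Cxcr5+ B cells and follicular helper T cells into lymphoid tissue. Cxcl16 is made as a membrane protein that Adam10 and Adam17 release, and it binds Cxcr6. Cxcl14 is a mostly constitutive member of less settled receptor use.

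Total counts ranged from 16512783 to 48460995 per library (median 24086623). Levels are given as CPM, counts scaled to library size with TMM factors. Ezr itself was at 503, 593 and 497 CPM in WT moMs against 282, 159.9 and 252 CPM in Ezr-KOm moMs. In tnsIMs it was at 678, 515 and 564 against 234, 126 and 213 CPM, and in matIMs at 741, 632 and 610.4 against 167, 93.8 and 144 CPM. No Ezr-KOm library reached the lowest WT library of its population. The summed CPM of 7 MHC class II genes was 5255 to 7056 in WT moMs and 28060 to 60400 in WT tnsIMs. Markers of other cells also differed between the populations. The summed CPM of 8 fibroblast markers was 28.2 to 42.1 in WT moMs, 104 to 116 in WT tnsIMs and 16.8 to 29.1 in WT matIMs, and that of 10 epithelial markers was 137 to 162, 3062 to 4690 and 591 to 659. The sum of 9 dendritic cell markers was 83.2 to 125, 308 to 555 and 5500 to 7594 CPM in the same order, and that of 8 B cell markers 108 to 177, 224 to 336 and 1132 to 1781 CPM. The 14 macrophage and monocyte markers summed to 29370 to 35730 CPM in WT moMs and to 12000 to 13380 CPM in WT matIMs. By gene, 3 of the 14 were higher in WT matIMs than in WT moMs, 8 lower and 3 not called (edgeR adjusted p under 0.05), beside 24.8% of all genes called. In bulk samples, fewer cells of a type and less RNA per cell cannot be told apart.

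Per kilobase of exon, Cxcl2 was the leading member in all 6 groups. It made up 77.0% ± 4.41 (SD, n = 3) of the members' summed CPM per kb in WT moMs, 73.6% ± 4.21 in WT tnsIMs and 54.7% ± 7.16 in WT matIMs. Cxcl10 came second in moMs and tnsIMs of both genotypes, at 9.02% to 10.6% of the sum by group mean. In matIMs the second place belonged to Cxcl13, which went from 0.0323% ± 0.00808 in WT moMs to 10.7% ± 5.62 in WT matIMs and 26.0% ± 12.6 in Ezr-KOm matIMs. Cxcl12 was the lowest member per kb in every group, at most 0.0693% of the sum by group mean. In WT moMs its 0.526 ± 0.170 CPM per kb lay near the 0.751 ± 0.186 of Cxcl13. By CPM Cxcl13 was the lower of the 2 there (0.863 against 4.39). The shares of Cxcl10, Cxcl13 and Cxcl16 in WT matIMs (10.1%, 10.7% and 10.2%) differed by less than their spread between libraries. Ranks and shares per kb depend on the exon lengths, which join all annotated transcripts. For Cxcl1, Cxcl2, Cxcl3 and Cxcl10 that length equals the whole gene span, and for Cxcl13 it does not. By CPM in WT matIMs, Cxcl13 (209) lay below Cxcl16 (918), Cxcl10 (397) and Cxcl3 (353).

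**Figure D1:**
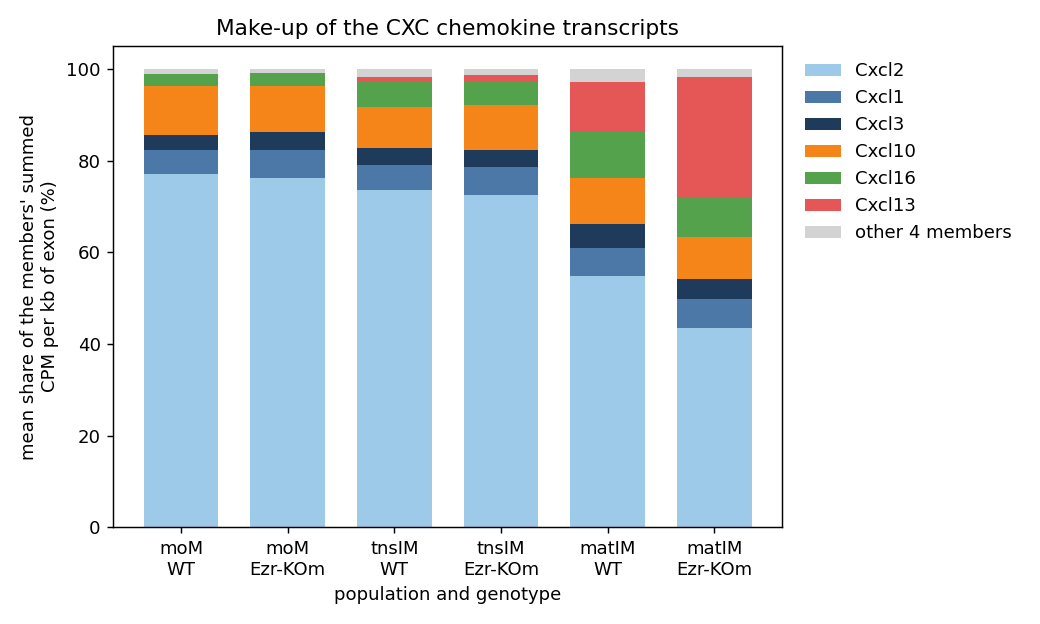
Mean share of each member in the summed CPM per kb of exon of the 10 CXC chemokines (y axis, %), by population and genotype (x axis; 3 libraries each). Cxcl2 takes 77.0% in WT moMs and 54.7% in WT matIMs, and the red part, Cxcl13, reaches 10.7% in WT and 26.0% in Ezr-KOm matIMs. The shares depend on the exon length given to each gene.

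Population comparisons were made within each genotype with edgeR's quasi-likelihood test, and a gene was called at a Benjamini-Hochberg adjusted p under 0.05. The fit behind the counts of this paragraph did not pair libraries by replicate number. Counts from fits with a replicate block differ and are given in the last section. From moMs to tnsIMs, 4 of 10 members rose in WT and the same 4 in Ezr-KOm mice (Cxcl12, Cxcl13, Cxcl14 and Cxcl16), where 21.6% and 14.3% of all genes were called. From tnsIMs to matIMs, Cxcl13 rose and Cxcl2 and Cxcl12 fell in both genotypes, against 18.5% of all genes called in WT and 18.2% in Ezr-KOm. Between matIMs and moMs, Cxcl13 and Cxcl16 were higher in matIMs in both genotypes and Cxcl2 was lower in Ezr-KOm matIMs, against 24.8% and 23.3% of all genes. The median log2 difference of the 10 members between WT tnsIMs and moMs was 0.56, beside 0.02 over all genes tested. Between WT matIMs and tnsIMs it was -0.15 beside 0.04.

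**Figure D2:**
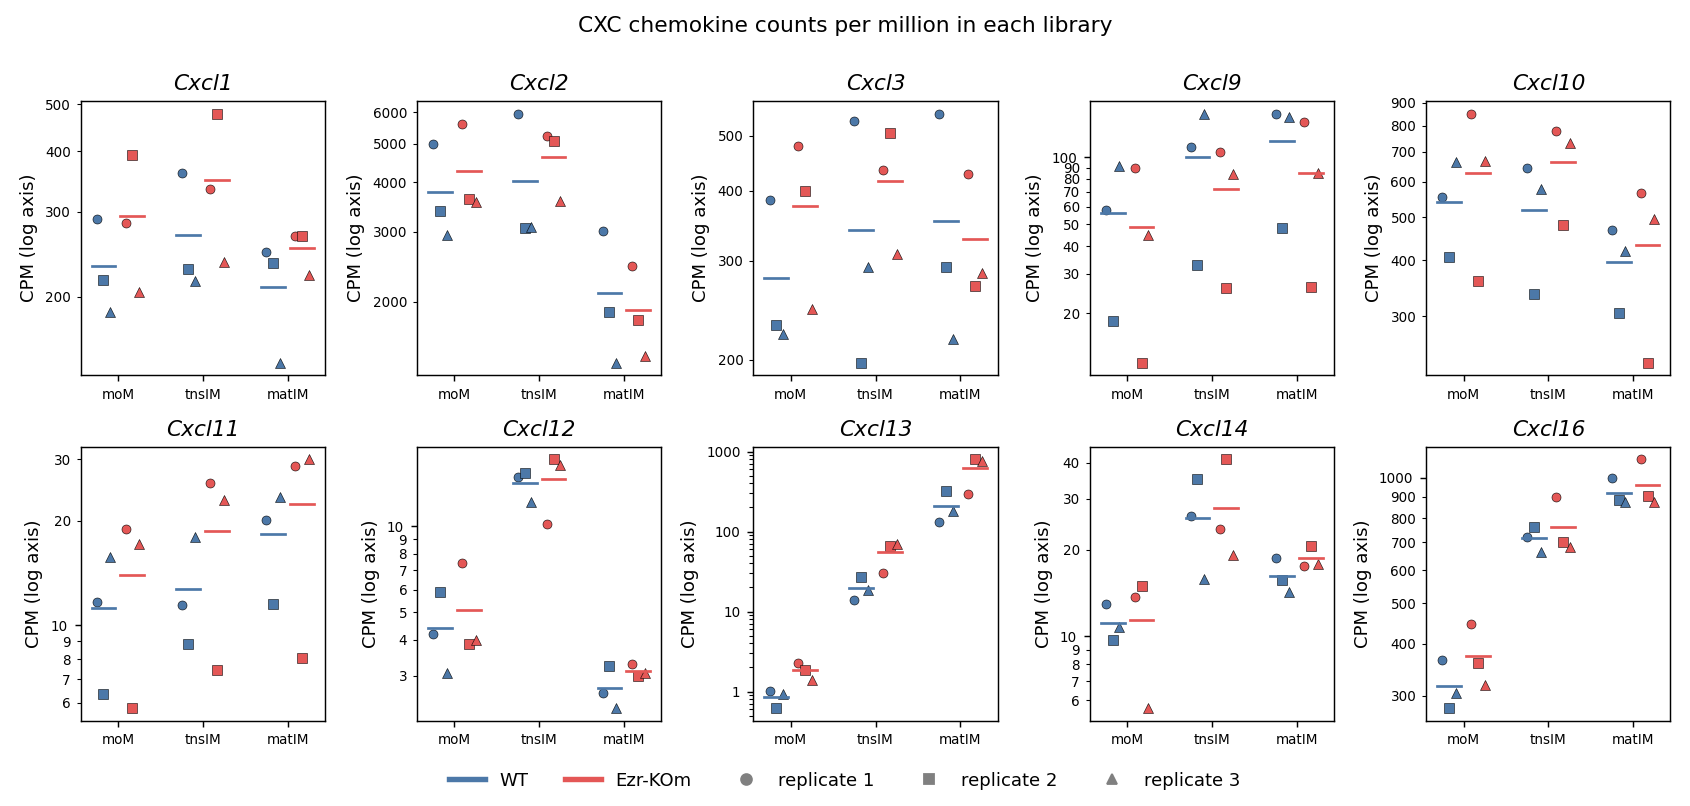
CPM of each member (y axis, log scale) in every library, by population (x axis), with WT in blue, Ezr-KOm in red, the replicate number as the symbol and the group mean as a bar. Cxcl13 goes from 0.621 to 2.26 CPM in moMs to 130.2 to 805 CPM in matIMs, Cxcl12 and Cxcl14 have their highest group means in tnsIMs, and the squares (replicate 2) are the lowest points of Cxcl9, Cxcl10 and Cxcl11 in all 6 groups.

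Cxcl13, the B cell attractant, had the largest population differences of the members. On GRCm39 it lies on chromosome 5 (96104810 to 96108927, plus strand). WT moMs had 1.02, 0.621 and 0.945 CPM, which were 15 to 24 counts per library. WT tnsIMs had 14.1, 27.3 and 18.6 CPM. WT matIMs had 130.2, 319.6 and 178 CPM. No library of any population overlapped the next in either genotype. The rise was 4.54 on the log2 scale from moMs to tnsIMs (SE 0.50, edgeR adjusted p = 5.88e-06) and 3.40 from tnsIMs to matIMs (SE 0.41, edgeR adjusted p = 8.00e-06), which gave 7.93 from moMs to matIMs (SE 0.54, edgeR adjusted p = 4.93e-09, 95% interval 6.80 to 9.06). In Ezr-KOm mice the same steps were 4.90, 3.49 and 8.39 on the log2 scale, and each call held in every alternative fit. Cxcr5, the gene of its receptor, also rose at both steps, from 0.748 ± 0.387 CPM in WT moMs to 5.30 ± 1.33 in WT tnsIMs and 34.1 ± 7.16 in WT matIMs (SD, n = 3). Among those 9 dendritic cell markers, Ccr7 was at 13.5 ± 3.36, 108 ± 18.1 and 1814 ± 292 CPM and Ccl22 at 6.15 ± 0.397, 134 ± 12.0 and 2631 ± 445 CPM along the WT series of moM, tnsIM and matIM, while Xcr1 was at 6.26 ± 2.32, 3.23 ± 0.934 and 3.76 ± 0.608 CPM. The B cell markers Cd79a and Ms4a1 reached 56.7 ± 13.9 and 32.8 ± 8.02 CPM in WT matIMs. The part of these cells in the Cxcl13 level was not tested.

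**Figure D3:**
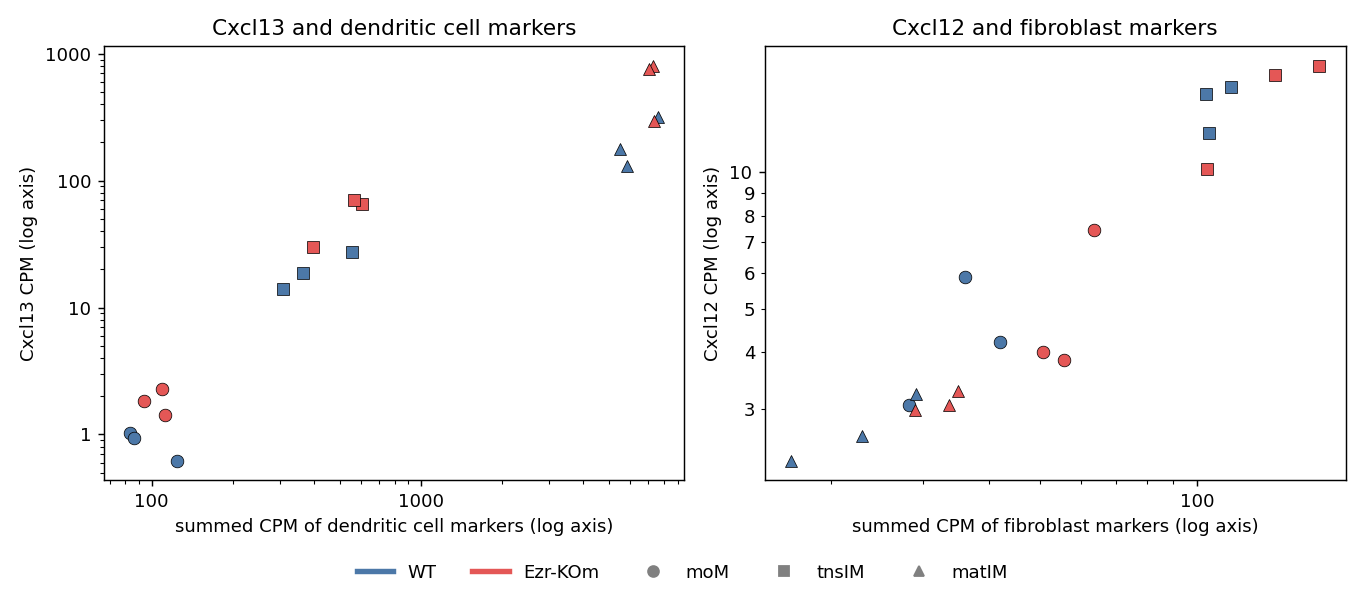
Left, Cxcl13 CPM (y axis) against the summed CPM of 9 dendritic cell markers (x axis); right, Cxcl12 CPM against the summed CPM of 8 fibroblast markers, all on log scales, each point a library. matIMs (triangles) stand highest on both axes at left, and tnsIMs (squares) stand highest on both axes at right; among matIMs the Ezr-KOm libraries lie at 297 to 805 CPM of Cxcl13 for dendritic cell sums of 7009 to 7323.

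Cxcl12 and Cxcl14 had their highest levels in tnsIMs. Cxcl12 (chromosome 6, 117145496 to 117158328, plus strand) was at 4.21, 5.88 and 3.07 CPM in WT moMs, 14.9, 15.4 and 12.2 CPM in WT tnsIMs and 2.62, 3.25 and 2.31 CPM in WT matIMs. The tnsIM libraries lay above all others. The step up from moMs was 1.69 on the log2 scale (SE 0.29, edgeR adjusted p = 3.36e-04) and the step down to matIMs -2.38 (SE 0.29, edgeR adjusted p = 1.07e-05). In Ezr-KOm mice the steps were 1.52 and -2.23, both called. Without the libraries numbered 2 the first was 1.21 (edgeR adjusted p = 0.0642). The fibroblast sum had the same order, with Col1a1 at 3.56 ± 0.760, 20.2 ± 1.96 and 3.55 ± 1.41 CPM along the WT series of moM, tnsIM and matIM (SD, n = 3). The endothelial sum (8 markers) was 322 to 522 CPM in WT tnsIMs against 100 to 134 in WT moMs and 78.1 to 106 in WT matIMs. Their part in the Cxcl12 level was not tested.

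Cxcl14 (chromosome 13, 56436456 to 56444364, minus strand) was at 12.97, 9.69 and 10.8 CPM in WT moMs, 26.2, 35.3 and 15.9 CPM in WT tnsIMs and 18.7, 15.7 and 14.3 CPM in WT matIMs. The tnsIM libraries stood clear of the moM libraries but not of the matIM libraries, from which the difference was not called (matIMs -0.67 from tnsIMs, edgeR adjusted p = 0.195). tnsIMs exceeded moMs by 1.21 on the log2 scale in WT (SE 0.33, edgeR adjusted p = 0.0138) and by 1.30 in Ezr-KOm mice (SE 0.33, edgeR adjusted p = 0.0115). The WT call was lost without moM WT replicate 2 (1.13, edgeR adjusted p = 0.0584), moM WT replicate 3 (1.19, 0.0510) or tnsIM WT replicate 2 (0.95, 0.0783). The Ezr-KOm call was lost without moM Ezr-KOm replicate 3 (0.99, edgeR adjusted p = 0.0618) or tnsIM Ezr-KOm replicate 2 (0.90, 0.102). Leaving out all libraries numbered 2 gave 0.83 in WT and 1.14 in Ezr-KOm mice, neither called.

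Cxcl16, the membrane-bound ligand, lies on chromosome 11 (70344809 to 70350810, minus strand). It was at 365, 280.0 and 305 CPM in WT moMs, 723, 760 and 664 CPM in WT tnsIMs and 997, 884 and 875 CPM in WT matIMs. The WT populations did not overlap, and in Ezr-KOm mice only tnsIMs and matIMs did. The rise was 1.18 on the log2 scale from moMs to tnsIMs (SE 0.16, edgeR adjusted p = 4.07e-05) and 1.54 from moMs to matIMs (SE 0.16, edgeR adjusted p = 8.46e-07), and in Ezr-KOm mice 1.03 and 1.36, both called. Between tnsIMs and matIMs the difference of 0.36 in WT and 0.34 in Ezr-KOm mice was not called without a block (edgeR adjusted p = 0.129 and 0.161). A block for replicate number made it a call in both (0.36 and 0.34, edgeR adjusted p = 0.0211 and 0.0267). Zmynd15 and Med11 overlap Cxcl16 on the opposite strand in the later annotation, and the kit does not mark strand. Zmynd15 was at 17.6 ± 4.596, 41.1 ± 2.52 and 85.1 ± 3.37 CPM along the WT series of moM, tnsIM and matIM. Of the genes of its shedding, Adam10 was at 300.2 ± 24.2, 218 ± 35.2 and 198 ± 23.7 CPM and Adam17 at 293 ± 25.0, 297 ± 52.0 and 239 ± 22.9 CPM along the WT series of moM, tnsIM and matIM, and Cxcr6 stayed between 1.797 and 3.81 CPM by group mean.

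The ELR ligands Cxcl3, Cxcl1 and Cxcl2 lie in this order within bases 90933962 to 91053797 of chromosome 5, all on the plus strand. Promoter sequence before the RefSeq start (GRCm38.p6 table, found again letter for letter in GRCm39) was at hand for 8 of the 10 members. NF-kB motifs (GGGNNNTTCC, either strand, within 250 bases before the start) were present in 4 of the 8, Cxcl1, Cxcl2, Cxcl3 and Cxcl10, and in 4.65% of the 32851 promoters of the table. Each of the 4 held 2 separate stretches, and where the 2 strands match at neighbouring bases the stretch is 11 letters long. The stretches are shown with 20 bases on either side because these 4 genes share the motif that is central to the early LPS response. Capitals mark the NF-kB matches and, in Cxcl10, also an ISRE match (TTTCNNTTTC, an interferon response element) read on the other strand, which is the first capital run there. Cxcl1 spans chr5:91038995-91039063 (plus strand, positions -109 to -41 from the start), Cxcl2 chr5:91051641-91051709 (plus, -117 to -49), Cxcl3 chr5:90933867-90933939 (plus, -93 to -21) and Cxcl10 chr5:92496823-92496981 (minus, -233 to -75).
Cxcl1: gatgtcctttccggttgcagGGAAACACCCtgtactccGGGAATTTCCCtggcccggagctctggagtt
Cxcl2: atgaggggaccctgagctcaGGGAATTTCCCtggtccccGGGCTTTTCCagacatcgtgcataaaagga
Cxcl3: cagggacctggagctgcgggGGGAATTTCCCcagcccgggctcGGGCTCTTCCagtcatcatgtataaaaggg
Cxcl10: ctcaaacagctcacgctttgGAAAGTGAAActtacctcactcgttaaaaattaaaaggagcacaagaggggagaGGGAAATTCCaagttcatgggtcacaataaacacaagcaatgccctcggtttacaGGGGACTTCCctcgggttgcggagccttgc
The same 11 letters stand in Cxcl1, Cxcl2 and Cxcl3. The ISRE letters were in 2 of the 8 members (Cxcl10 and Cxcl14) and in 2.98% of all promoters, and the GAS letters (TTCNNNGAA) in 1 (Cxcl14) and in 7.02%. No pair of different motifs overlapped in these members. Cxcl9, Cxcl12 and Cxcl13 held no exact match to the 3 patterns in this window, which says nothing of variant forms within it or of elements elsewhere.

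Cxcl2 was at 4997, 3394 and 2948 CPM in WT moMs, 5962, 3065 and 3081 CPM in WT tnsIMs and 3011, 1883 and 1404 CPM in WT matIMs. The matIM libraries lay below all tnsIM libraries, and the highest of them overlapped the moMs. In Ezr-KOm mice it was at 5620, 3624 and 3574 CPM in moMs, 5223, 5085 and 3578 CPM in tnsIMs and 2463, 1795 and 1461 CPM in matIMs, which lay below both other populations. From tnsIMs to matIMs it fell by 0.94 on the log2 scale in WT (SE 0.31, edgeR adjusted p = 0.0411) and by 1.28 in Ezr-KOm mice (SE 0.31, edgeR adjusted p = 0.00665). From moMs to matIMs it fell by 1.17 in Ezr-KOm mice (SE 0.31, edgeR adjusted p = 0.0102), and in WT the difference was -0.85 (SE 0.31, edgeR adjusted p = 0.0544), which DESeq2 called (-0.85, adjusted p = 0.0307). The WT call against tnsIMs was lost without tnsIM WT replicate 1 (-0.56, edgeR adjusted p = 0.291), matIM WT replicate 2 (-0.90, 0.139), matIM WT replicate 3 (-0.74, 0.176) or matIM Ezr-KOm replicate 2 (-0.94, 0.0507), and with the replicate block its edgeR adjusted p was 7.22e-05. The Ezr-KOm call against moMs was lost without moM Ezr-KOm replicate 1 (-0.90, edgeR adjusted p = 0.0774) or matIM Ezr-KOm replicate 3 (-1.02, 0.0617). Without all libraries numbered 2, the 3 Cxcl2 calls were lost (edgeR adjusted p from 0.0911 to 0.201).

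Cxcl1 and Cxcl3 did not pass the test between populations, except that Cxcl1 was called between Ezr-KOm matIMs and tnsIMs with a replicate block within genotype (-0.41, edgeR adjusted p = 0.0483, and 0.303 without a block). Cxcl1 was at 231 ± 53.3, 268 ± 80.6 and 210 ± 55.2 CPM along the WT series of moM, tnsIM and matIM (SD, n = 3), and the difference of WT matIMs from WT tnsIMs was -0.36 on the log2 scale (95% interval -0.94 to 0.23). Cxcl3 was at 279 ± 91.5, 340 ± 172 and 353 ± 173 CPM, and the same difference was 0.05 (95% interval -0.71 to 0.82). Cxcl2 and Cxcl3 transcripts are 90.018% identical over 561 aligned bases, so how the counting split reads between them is uncertain. Of 17 NF-kB and early LPS genes, 2 were higher and 2 lower in WT matIMs than in WT tnsIMs and 13 were not called, a share near the 18.5% of all genes called (median log2 difference -0.09, beside 0.04 over all genes), with Relb, Ier3, Nfkb1 and Il1a at the smallest p.

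Of the interferon-induced ligands, which lie within bases 92469206 to 92513344 of chromosome 5 on the minus strand, none was called between populations without a block. Cxcl9 was at 57.9, 18.4 and 91.7 CPM in WT moMs, 111, 32.8 and 157 CPM in WT tnsIMs and 157, 48.1 and 151 CPM in WT matIMs. Cxcl10 was at 555, 408 and 663 CPM in WT moMs, 644, 336 and 578 CPM in WT tnsIMs and 468, 305 and 419 CPM in WT matIMs. Cxcl11, annotated in the table as a polymorphic pseudogene, was at 11.7, 6.34 and 15.7 CPM in WT moMs and at 20.03, 11.53 and 23.3 CPM in WT matIMs. The second value of each group was the lowest throughout, and it made the spread within groups wide: the 95% interval of the log2 difference of Cxcl9 between WT tnsIMs and moMs ran from -0.71 to 2.40. After blocking on replicate number, Cxcl9 was higher in WT tnsIMs than in WT moMs by 0.83 on the log2 scale (edgeR adjusted p = 0.0166), and Cxcl10 was lower in Ezr-KOm matIMs than in Ezr-KOm tnsIMs (-0.67, edgeR adjusted p = 0.00186). In that last comparison the block brought the count from 3 to 5 members, with Cxcl16 the other. The share of all genes called with the block is not given here. Art3, which overlaps Cxcl10 and Cxcl11 on the opposite strand, was at 2.49 to 6.15 CPM by group mean. Cxcl11 is also overlapped on that strand by the processed pseudogene Gm2673, identical to it over 1582 aligned bases, so the Cxcl11 level is uncertain.

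Libraries of the same number moved together for most members. In the fit with the replicate number as a block, a comparison added after seeing these values, 9 of 10 members differed between the numbers (all but Cxcl12) at an edgeR adjusted p under 0.05, against 15.1% of all genes. The test takes the 3 numbers together, so its p belongs to no single pair of them. For Cxcl9 the edgeR adjusted p was 4.77e-06, with the libraries numbered 2 at -2.11 from those numbered 1 on the log2 scale. For Cxcl11 and Cxcl10 it was 7.68e-05 each, with differences of -1.24 and -0.87. Each of these 3 genes was lowest in replicate 2 in 6 of 6 groups. Cxcl1, Cxcl2 and Cxcl3 were lowest in replicate 3 in 6, 5 and 4 of 6 groups, and Cxcl2 was highest in replicate 1 in 6 of 6. Cxcl2 and Cxcl3 in replicate 3 were -0.80 and -0.85 from replicate 1 (edgeR adjusted p over the 3 numbers, 1.39e-04 and 0.00377). Cxcl13 went another way, at 0.95 above replicate 1 in replicate 2 and 0.67 above it in replicate 3 (edgeR adjusted p over the 3 numbers, 0.0156). Of the 17 NF-kB and early LPS genes, 5 differed between the numbers (median log2 difference of replicate 2 from 1, -0.10). What a number stands for is not given in the labels.

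**Figure D4:**
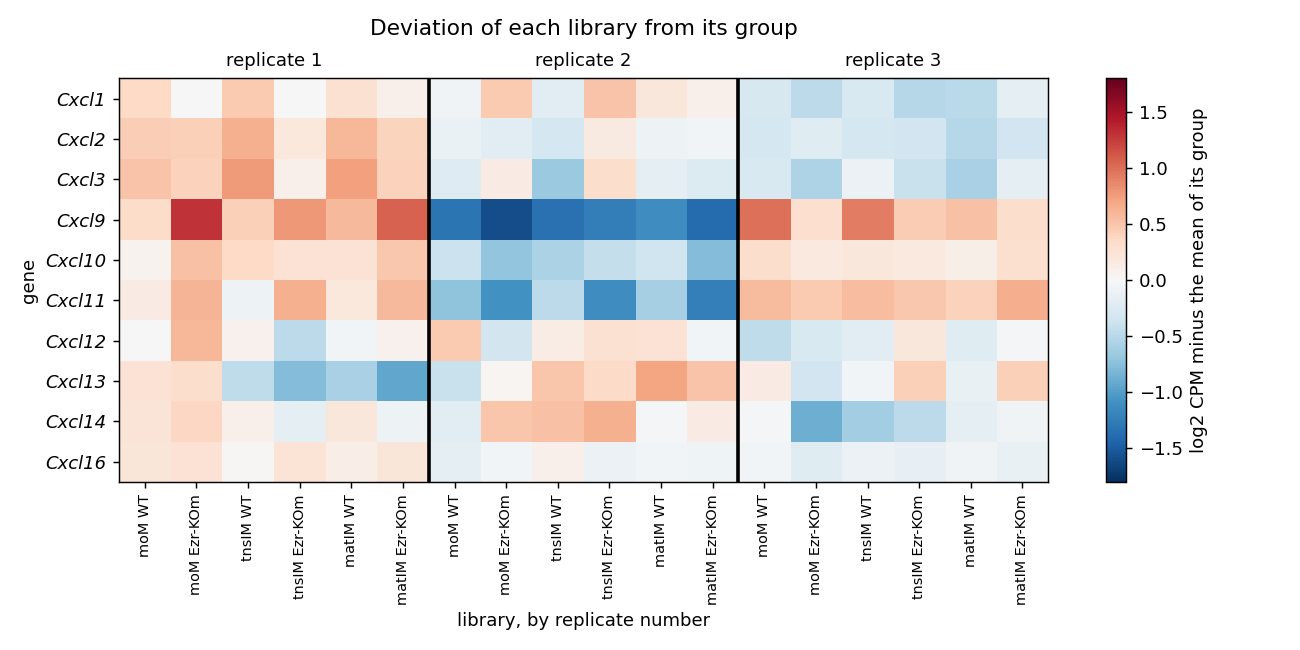
Log2 CPM of each member minus the mean of its own group (color, red above and blue below), with the 18 libraries on the x axis ordered by replicate number. Cxcl9, Cxcl10 and Cxcl11 are blue in all 6 libraries of replicate 2, and Cxcl2 is red in all 6 of replicate 1.

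Loss of ezrin was compared with WT within each population. No member passed an adjusted p under 0.05 in moMs, tnsIMs or matIMs, where 0.171%, 0.164% and 0.152% of all genes did. Of the 10 members, 0, 1 and 1 had an unadjusted edgeR p under 0.05, beside 592, 512 and 607 of all 15811 genes. The study itself called genes with p under 0.05 before adjustment whose log2 fold change passed 0.75 either way. By that rule 0, 1 and 1 of 10 members were called, each time Cxcl13, against 2.51%, 1.83% and 2.4% of all genes. In the order moM, tnsIM, matIM, the members' median log2 difference was 0.23, 0.24 and 0.16, with 9, 9 and 7 of 10 above 0, beside medians of 0.00 over all genes.

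Cxcl13 had a higher mean CPM in Ezr-KOm cells of each population, without a call in edgeR's fit of all 18 libraries without a block. In moMs it was at 2.26, 1.85 and 1.41 CPM against 1.02, 0.621 and 0.945 CPM in WT, and the libraries did not overlap. In tnsIMs it was at 30.0, 65.5 and 69.8 CPM against 14.1, 27.3 and 18.6 CPM, again without overlap. In matIMs it was at 297, 805 and 758 CPM against 130.2, 319.6 and 178 CPM, where the lowest Ezr-KOm library lay under the highest WT library. The share of all genes without overlap between the genotypes is not given here. Between libraries of the same number, Cxcl13 was higher in Ezr-KOm than in WT in 9 of 9 pairs. The ratios were 1.49 to 2.98 in moMs, 2.14 to 3.76 in tnsIMs and 2.28 to 4.25 in matIMs. The populations of a genotype were taken to come from shared animals, so these pairs are not treated as independent. The log2 differences were 1.11 (SE 0.55), 1.47 (SE 0.38) and 1.57 (SE 0.38), with edgeR adjusted p of 1, 0.360 and 0.219. Their 95% intervals were -0.051 to 2.261, 0.665 to 2.278 and 0.774 to 2.358, so the moM interval crossed 0. The labels do not say that the numbers pair these libraries, and the pairing was taken from correlations in the same data. With the replicate block the difference was called in tnsIMs (1.44, edgeR adjusted p = 0.0228) and matIMs (1.55, edgeR adjusted p = 0.00754). In moMs it was not called (1.17, edgeR adjusted p = 0.690). DESeq2 called it in tnsIMs (1.45, adjusted p = 0.0424) and matIMs (1.57, adjusted p = 0.0128) without a block. Without matIM Ezr-KOm replicate 1 the matIM difference was 1.90 (edgeR adjusted p = 0.0309). Those were the only alternatives with a call, 3 in matIMs and 2 in tnsIMs. The difference stayed uncalled in 24 alternatives in matIMs and 25 in tnsIMs. The summed dendritic cell markers were 7009 to 7323 CPM in Ezr-KOm matIMs against 5500 to 7594 in WT, and 398 to 606 CPM in Ezr-KOm tnsIMs against 308 to 555. The B cell sum was 940.1 to 1309 CPM in Ezr-KOm matIMs against 1132 to 1781 in WT, and Cxcr5 was at 29.01 ± 2.62 against 34.1 ± 7.16 CPM (SD, n = 3). The fibroblast sum was 50.8 to 63.6 CPM in Ezr-KOm moMs against 28.2 to 42.1 in WT, 104 to 171 against 104 to 116 in tnsIMs, and 28.9 to 35.0 against 16.8 to 29.1 in matIMs. By the study's rule 4, 1 and 2 of these 8 markers were higher in Ezr-KOm moMs, tnsIMs and matIMs and 0 lower, and none had an adjusted p under 0.05. The part of these cells in the genotype difference was not tested.

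The other 9 members gave intervals that reached across 0 in all 3 populations. Cxcl1 was higher in Ezr-KOm cells by 0.35, 0.38 and 0.27 on the log2 scale in moMs, tnsIMs and matIMs, with 95% intervals of -0.24 to 0.93, -0.21 to 0.97 and -0.32 to 0.85. Cxcl2 differed by 0.18, 0.20 and -0.14, with intervals of -0.47 to 0.83, -0.45 to 0.85 and -0.79 to 0.51. Cxcl16 had the narrowest intervals, -0.09 to 0.57, -0.24 to 0.42 and -0.26 to 0.40. Cxcl9 had the widest, -1.75 to 1.35, -2.03 to 1.06 and -2.02 to 1.06. Its Ezr-KOm level was above WT in 1 of 9 same-number pairs, which are not treated as independent.

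**Figure D5:**
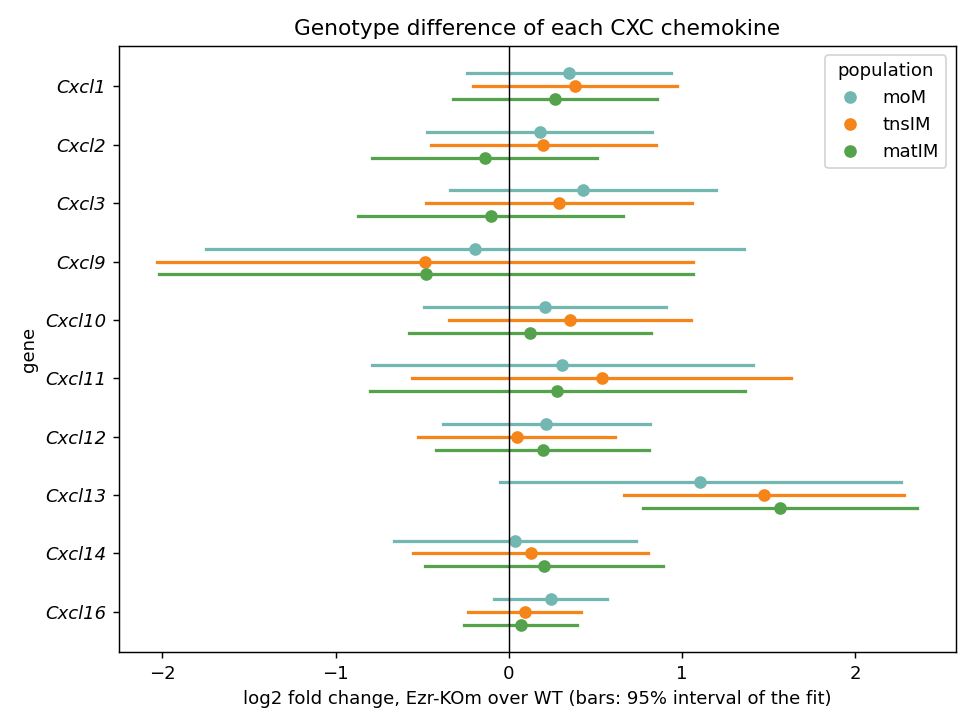
Log2 fold change of Ezr-KOm over WT (x axis) for each member (y axis) in moMs, tnsIMs and matIMs; points are estimates of the fit and bars their 95% intervals. Cxcl13 lies at 1.11, 1.47 and 1.57, and its bar in moMs crosses 0. The bars of the other 9 members cross 0 in all 3 populations.

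Whether the genotype difference itself differed between populations was tested as an interaction. No member and no gene was called for tnsIMs against moMs (0% of genes), matIMs against tnsIMs (0%) or matIMs against moMs (0%) by edgeR's adjusted p, while 233, 183 and 268 genes had an unadjusted p under 0.05. DESeq2 also called 0 members, and 0 members had an unadjusted p under 0.05 in edgeR in any of the 3. The smallest edgeR p before adjustment was 0.318, for Cxcl3 between matIMs and moMs, in the model fitted across all genes. For Cxcl13 the interaction of matIMs against moMs was 0.46 on the log2 scale (95% interval -0.97 to 1.89).

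The 5 other CXC ligands of the table gave a view of the rest of the family. Cxcl5, Cxcl15 and Cxcl17, which lung epithelium makes, all peaked in tnsIMs. Cxcl5, a further Cxcr2 ligand, was at 0.724 ± 0.236, 11.9 ± 1.53 and 2.98 ± 0.420 CPM along the WT series of moM, tnsIM and matIM, and Cxcl15 at 0.859 ± 0.439, 57.1 ± 12.9 and 6.08 ± 0.887 CPM (SD, n = 3). All 3 rose from moMs to tnsIMs and fell to matIMs in both genotypes by the adjusted p. The epithelial marker Sftpc was at 18.5 ± 5.03, 1314 ± 513 and 114 ± 9.97 CPM along that series. The part of its cells in these levels was not tested. Pf4 was called only from WT tnsIMs to WT matIMs (28.1 ± 5.26 to 65.1 ± 17.2 CPM), a comparison of calls and not a tested difference between genotypes. Ppbp was not called. In Ezr-KOm against WT none of the 5 ligands had an adjusted p under 0.05. By the study's rule Cxcl5 was lower in Ezr-KOm matIMs (-1.06 on the log2 scale, edgeR adjusted p = 0.777).

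Of the 8 CXC receptor genes, 7 were tested and Cxcr1 was below the filter. From WT moMs to WT tnsIMs, 4 rose (Cxcr2, Cxcr5, Ackr1 and Ackr3) and 3 were not called, beside 21.6% of all genes called. Cxcr2 was at 1.85 ± 0.226, 9.11 ± 6.12 and 6.71 ± 2.75 CPM along the WT series of moM, tnsIM and matIM. The scavenging receptor gene Ackr3 was at 3.03 ± 1.10, 13.7 ± 4.48 and 1.08 ± 0.617 CPM, the same order as its ligand Cxcl12, and Ackr1, a marker of venular endothelium, at 0.256 ± 0.210, 3.27 ± 1.12 and 0.0409 ± 0.0428 CPM. Cxcr4, the signaling receptor of Cxcl12, was at 62.5 ± 12.5, 71.0 ± 12.8 and 84.6 ± 19.6 CPM and was not called in any comparison. Cxcr3 was at 2.32 to 3.66 CPM by group mean. No receptor was called between genotypes by either rule.

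Proteases that trim or release CXC chemokines changed with the population. Of 6, 2 rose and 1 fell from WT moMs to WT tnsIMs (21.6% of all genes called), 1 rose and 1 fell from WT tnsIMs to WT matIMs (18.5%), and 3 rose and 2 fell from WT moMs to WT matIMs (24.8%). Dpp4, which cuts the first residues off Cxcl10 and Cxcl12, was at 43.2 ± 6.50, 29.04 ± 10.9 and 156 ± 34.2 CPM along the WT series of moM, tnsIM and matIM, and Mmp12 at 109 ± 17.99, 324 ± 75.7 and 406 ± 92.7 CPM. Mmp8, also a neutrophil gene, fell from 376 ± 67.2 to 37.1 ± 1.28 and 11.4 ± 2.52 CPM. The sum of 10 neutrophil markers, Mmp8 and Csf3r (389 ± 32.1 to 129 ± 35.2 CPM) among them, was 781 to 875 CPM in WT moMs and 257 to 325 in WT matIMs, but by the adjusted p 3 of the 10 were higher in WT matIMs, 3 lower and 4 not called, with a median log2 difference of 1.82. None of the 6 was called between genotypes by either rule.

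The genes nearest to each member in pattern were ranked by the root mean square difference of centered log2 CPM over the 18 libraries. Cxcl13 was nearest to H2-M2 (0.72, beside a median of 3.39 over all genes) and Ccl22 (0.75). Cxcl12 was nearest to Col1a2, a fibrillar collagen gene (0.26, median 1.09), and Cald1 (0.26). Cxcl10 was nearest to Zbp1, an interferon-induced sensor (0.18, median 0.64), and Fcgr4 (0.26), Cxcl9 to Gbp2 (0.47, median 1.19) and Gm12185 (0.48), and Cxcl11 to Cd69 (0.32, median 0.85) and Tap1 (0.41). Cxcl2 was nearest to Morrbid (0.21, median 0.76) and Ets2 (0.22), Cxcl1 to Dcxr (0.21, median 0.59) and Gclm (0.22), and Cxcl3 to Slc7a1 (0.22, median 0.64) and Atf4 (0.23). Cxcl16 was nearest to Bex3 (0.21, median 0.78) and Cd63 (0.23), and Cxcl14 to Kazald1 (0.26, median 0.80) and Alad (0.30).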

How the data were processed

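The deposited table holds raw counts of reads per gene, which the authors made with STAR 2.7.9a (version from the submitters' processing notes) on GRCm39 with a Gencode annotation, without normalization. The cDNA kit does not mark strand, and which strand setting was counted is not given in the sources used here. Columns were matched to samples by name. Genes passing filterByExpr (smallest count 10) were scaled by TMM and fitted in 1 quasi-likelihood model of 6 groups with edgeR 4.0.16 in R 4.3.3. P-values were adjusted by Benjamini-Hochberg over all 15811 genes. The fit was tested on simulated libraries that were independent and held no effect of replicate number, so that test does not cover such an effect. CPM use library totals times TMM factors (0.931 to 1.07). Exon lengths and overlaps came from a later Gencode annotation of GRCm39, transcript copies from BLAST 2.17.0, promoters from RefSeq.

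Members and gene lists were chosen with earlier results of these data known. The results of 1 gene list are not reported here. Named genes were all members, Ezr, every tested CXC receptor, list counts with at most 4 genes of smallest p, and the 2 nearest genes per member; markers and other list genes given with levels were chosen after their values were seen. Replicates of a group differed by more than sampling noise. Deviations from group means correlated at 0.102 to 0.316 between WT and Ezr-KOm libraries of one number. Between unlike numbers the highest was 0.0508, and the numbers were taken to pair those libraries. The same held for tnsIMs against moMs and matIMs against tnsIMs (0.169 to 0.397) and not for every pair of matIMs against moMs (0.0905 to 0.264). Intervals are at 95% of the fit. Alternatives were DESeq2 1.42.0, other scalings and filters, robust estimation, separate fits, replicate blocks and each library left out.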

Additional observations from a re-analysis of the deposited data

How the results depend on the processing

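The 19 calls of members between populations kept their direction in all 532 values under alternatives, and 13 kept the call in each. The 6 that lost it are the Cxcl2, Cxcl12 and Cxcl14 calls given above with the libraries concerned. Cxcl2 between WT matIMs and tnsIMs also lost it with at least 10 counts asked of every library (edgeR adjusted p = 0.0512) and when WT libraries were fitted alone (0.0630). With the replicate block, members called were 1 for Ezr-KOm against WT in tnsIMs and 1 in matIMs (DESeq2 likewise 1 and 1), 6 for WT matIMs against moMs, 5 for Ezr-KOm matIMs against tnsIMs and 7 for Ezr-KOm matIMs against moMs. With a replicate block within genotype they were 5 and 6 for WT matIMs against tnsIMs and moMs, 6 and 7 for Ezr-KOm, and 5 in WT and 6 in Ezr-KOm for tnsIMs against moMs, where Ezr-KOm gained Cxcl9 (0.74, edgeR adjusted p = 0.00320) and Cxcl11 (0.41, 0.0484). That block also called Cxcl11 between WT matIMs and tnsIMs (0.53, 0.0116). The shares of all genes called under DESeq2 and the blocks are not given here, so these counts do not set the members apart. For matIMs against moMs only 2 of 3 same-number pairs correlated above 0.1 in either genotype, short of the bar set for pairing, though every same-number pair (0.0905 or more) lay above every unlike one (at most 0.0316). There the replicate block added, in WT, Cxcl2 (-0.88, edgeR adjusted p = 1.10e-04), Cxcl9 (1.15, 0.00155), Cxcl10 (-0.45, 0.0233) and Cxcl11 (0.74, 0.0195), and in Ezr-KOm mice Cxcl9 (0.87, 0.0115), Cxcl10 (-0.54, 0.00801), Cxcl11 (0.64, 0.0394) and Cxcl14 (0.79, 0.0266). In the comparisons taken as paired, the block on replicate number across all libraries changed no call beyond those given in the text. Leaving out libraries, those numbered 2 together included (a choice made after seeing the data), gave 0 to 1 for Ezr-KOm against WT in matIMs, 2 to 4 for WT matIMs against moMs (4 without moM WT replicate 3) and 2 to 4 for Ezr-KOm tnsIMs against moMs. The cause was not tested, except that fewer libraries leave fewer degrees of freedom.

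Reversals were all in differences that were not called. Cxcl14 between genotypes in moMs was -0.056 with the replicate block, and Cxcl10 between WT tnsIMs and moMs was 0.034 with upper-quartile normalization and 0.013 on library totals only. With libraries left out, log2 differences of the following changed sign. For Ezr-KOm vs WT, moM, the ranges were Cxcl2 -0.088 to 0.43, Cxcl9 -0.99 to 0.37, Cxcl10 -0.093 to 0.49, Cxcl12 -0.18 to 0.66, Cxcl14 -0.30 to 0.36. For Ezr-KOm vs WT, tnsIM, the ranges were Cxcl1 -0.018 to 0.69, Cxcl2 -0.04 to 0.63, Cxcl3 -0.15 to 0.80, Cxcl12 -0.094 to 0.23, Cxcl14 -0.27 to 0.41, Cxcl16 -0.061 to 0.20. For Ezr-KOm vs WT, matIM, the ranges were Cxcl2 -0.37 to 0.23, Cxcl3 -0.36 to 0.38, Cxcl10 -0.12 to 0.42, Cxcl16 -0.047 to 0.15. For tnsIM vs moM, WT, the ranges were Cxcl1 -0.073 to 0.41, Cxcl2 -0.31 to 0.35, Cxcl3 -0.21 to 0.60, Cxcl10 -0.26 to 0.20, Cxcl11 -0.12 to 0.51. For matIM vs tnsIM, WT, the ranges were Cxcl3 -0.46 to 0.52, Cxcl9 -0.20 to 0.66. For matIM vs moM, WT, the ranges were Cxcl1 -0.31 to 0.062, Cxcl3 -0.16 to 0.61. For tnsIM vs moM, Ezr-KOm, the ranges were Cxcl1 -0.047 to 0.53, Cxcl2 -0.062 to 0.41, Cxcl3 -0.058 to 0.42, Cxcl10 -0.18 to 0.41. For matIM vs tnsIM, Ezr-KOm, the ranges were Cxcl9 -0.41 to 0.68, Cxcl11 -0.12 to 0.66. For matIM vs moM, Ezr-KOm, the ranges were Cxcl1 -0.44 to 0.018, Cxcl3 -0.46 to 0.041. Depth was lowest for Cxcl13 in moMs, at 15 to 52 counts per library.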
